A study of Mus musculus with 24 samples.

Results

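The collagen chain genes of differentiating mouse brite adipocytes were taken as every gene whose symbol is Col, a number, the letter a and a number, and which has a curated RefSeq mRNA in the deposited table. Where a gene had several such rows, the row of highest mean abundance over the 24 libraries stood for it. This gave 44 genes of 20461 in the table. By the structure their protein forms, 11 are fibril-forming, 6 are type IV chains of basement membranes, 6 are type VI chains of beaded filaments, 9 are fibril-associated (FACIT), 3 form short-chain networks, 2 are multiplexins, 4 span the membrane, 1 anchors fibrils and 2 are others. Transcript abundance was measured in primary adipocytes prepared from the stromal vascular fraction of inguinal white fat of 129SvEv mice, male and 5 to 6 weeks old. All cells were induced and then differentiated with rosiglitazone, a PPARγ agonist that promotes browning, so that no group of untreated or white adipocytes was compared. The cells received 50 nM of a locked nucleic acid gapmer, either one directed at the long noncoding RNA Ctcflos (KD) or a nontargeting one (NC), and were harvested 24 h or 72 h later. Each gapmer and harvest time makes a group, written as KD or NC with its time, and each of the 4 groups held 6 libraries. Cultures from the stromal vascular fraction are mixed, and in bulk RNA fewer cells of a type and less RNA per cell cannot be told apart.

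Collagens are extracellular proteins of 3 chains wound into a helix, which is possible because glycine, encoded by the codons GGN, recurs at a fixed short spacing along each chain. Fibril-forming collagens of types I, III and V build the cable-like fibrils of connective tissue, and type V sits inside type I fibrils and sets their diameter. Type IV collagen forms the sheet of the basement membrane that surrounds each adipocyte, and type VI collagen forms beaded filaments that are abundant in fat. FACIT collagens such as type XII attach to fibril surfaces, and the multiplexins of types XV and XVIII lie at the border of basement membrane and matrix. Preadipocytes lay down much fibrillar collagen, and adipocyte differentiation is accompanied by a basement membrane rich in type IV and by type VI filaments.

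The repeat that makes a chain a collagen can be read in the coding sequence of the chains that the results turn on. Shown are the earliest exons of 54 bases inside the longest unbroken run of GGN codons of 6 fibril-forming chains, from GENCODE M21 transcripts on GRCm38, 5′ to 3′ on the coding strand. Capitals mark the GG of the glycine codons that hold the repeat, and glycine codons at other positions are in lower case.
Col1a1, exon 8, chr11:94939904-94939957, plus strand: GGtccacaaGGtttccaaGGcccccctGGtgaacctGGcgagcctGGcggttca
Col1a2, exon 8, chr6:4515481-4515534, plus strand: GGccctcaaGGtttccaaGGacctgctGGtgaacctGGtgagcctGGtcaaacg
Col3a1, exon 6, chr1:45325360-45325413, plus strand: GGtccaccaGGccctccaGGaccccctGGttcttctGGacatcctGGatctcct
Col5a2, exon 10, chr1:45422386-45422439, minus strand: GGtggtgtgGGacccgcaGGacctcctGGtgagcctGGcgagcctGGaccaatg
Col5a1, exon 15, chr2:27965251-27965304, plus strand: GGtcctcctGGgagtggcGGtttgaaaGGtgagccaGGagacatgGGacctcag
Col5a3, exon 15, chr9:20801068-20801121, minus strand: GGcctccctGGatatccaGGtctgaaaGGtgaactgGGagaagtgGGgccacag
In each of these exons 6 glycine codons hold the repeat, at a spacing of 9 bases. The longest run counted 338 triplets of codons in Col1a1, 339 in Col1a2, 344 in Col3a1, 338 in Col5a1, 339 in Col5a2 and 337 in Col5a3. Type IV chains were built differently, with a longest run of 40 triplets in Col4a1 and 66 in Col4a2. The exons in which these longest runs end are shown next, with capitals at the GG of every glycine codon that holds the repeat in a run of at least 4 triplets, so that the break in the repeat can be seen.
Col4a1, exon 9, chr8:11244486-11244569, minus strand: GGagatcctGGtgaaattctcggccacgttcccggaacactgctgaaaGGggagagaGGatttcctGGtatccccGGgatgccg
Col4a2, exon 33, chr8:11437587-11437709, plus strand: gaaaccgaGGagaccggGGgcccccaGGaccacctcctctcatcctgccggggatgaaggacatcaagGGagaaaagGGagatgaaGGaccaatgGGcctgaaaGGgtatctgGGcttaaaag
The longest runs of the remaining tested chains lay between 30 triplets in Col15a1 and Col18a1 and 338 in Col11a1, with 217 in Col27a1.

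The libraries held 1391832 to 5926375 mapped reads, with a median of 4009998, as recovered from the table. In the deepest, NC 72 h replicate 6, 14.9% of the low read numbers were odd, against 54% to 55.7% in every other library, so that its read numbers and total may be overstated. NC 72 h replicates 2 and 3 were closer to each other than counting noise allows for separate libraries, and their mean served as 1 sample (NC 72 h n = 5). When group means were removed, the libraries fell into clusters of 16 and 8, called larger and smaller here. The smaller cluster took 2 libraries from each group, and values within each cluster are given beside the results that they move most. Ctcflos, read from its RefSeq transcript, measured 0.00 to 0.444 scaled RPKM in KD 72 h and 0.92 to 1.87 in NC 72 h, without overlap, and it measured 0.00 to 0.568 in KD 24 h and 0.19 to 1.44 in NC 24 h, where the ranges overlapped and reads were too few for a test. Of the cell type markers, 6 adipocyte genes summed to 25200 to 52000 scaled RPKM in every sample. Markers of other cells were also present, with sums of up to 1470 for 5 smooth muscle genes, 1030 for 8 fibroblast or progenitor genes, 164 for 4 mesothelial genes and 29.9 for 5 leukocyte genes, while 5 endothelial and 5 epithelial genes summed to at most 2.92 and 1.44.

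Levels are RPKM, reads divided by transcript length and library size, as the authors deposited them, brought to a common scale between samples and called scaled RPKM. The reads come from 3′ ends, so that division by length lowers long transcripts against short ones. Of the 44 genes, 20 had enough reads for a test in at least 1 comparison and 18 in all 4. Together the 44 rows took 0.583% to 0.646% of the mapped reads in NC 24 h with a median of 0.613%, and 0.677% to 1.04% in NC 72 h with a median of 0.899%. The share was 0.456% to 0.759% in KD 24 h and 0.671% to 1.01% in KD 72 h.

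Fibrillar chains dominated. By mean level over all samples Col1a2, the α2 chain of type I collagen, led with 423 scaled RPKM, before Col3a1, the chain of type III collagen, with 263 and Col1a1, the α1 chain of type I, with 166. Col6a1 with 73.9, Col4a1 with 69.9, Col5a2 with 68.2 and Col6a2 with 58.9 followed within a narrow span. Col6a3 reached 37.1, Col12a1 33.2, Col15a1 24.2, Col4a2 21.8, Col5a1 10.9, Col18a1 9.42 and Col5a3 7.2. In NC 24 h the leading 3 did not overlap with each other. Col6a1 at 70.6 to 85.8 and Col4a1 at 65.7 to 85.3 overlapped, while Col5a2 at 47.7 to 64.9 lay just below them. Type XVI, VIII and XXVII chains and Col4a5 lay at 0.588 to 2.08, and Col11a1 at 0.691. By reads over all libraries, without division by length, the order below the leading 3 differed. Col4a1 had 44786 reads, Col5a2 44414, Col12a1 38753, Col6a3 32469, Col6a1 29189 and Col6a2 21443.

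Of the 24 genes never tested, 14 had 9 to 62 reads over all libraries together. Among these were Col14a1, a FACIT of soft tissue, with 62 reads, Col10a1, a cartilage chain, with 56, and Col4a3, Col4a4 and Col4a6, chains of specialised basement membranes, with 38, 18 and 42. A further 6 genes were above 0 in at most 4 libraries, too few to recover reads. The remaining 4, Col2a1, Col9a1 and Col9a2 of cartilage and the membrane-spanning Col13a1, were at 0 in every library, which allows up to 3 reads over all libraries, or 0.0306 RPM, counting error only.

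**Figure D1:**
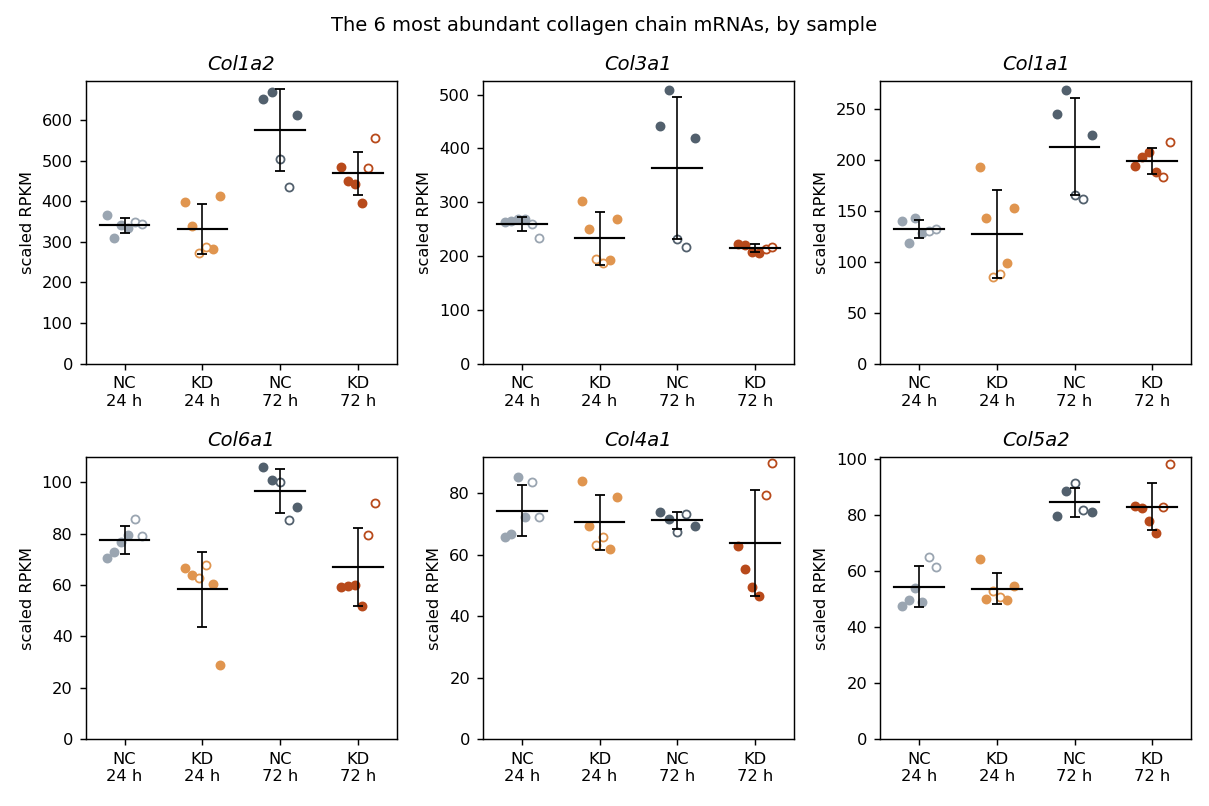
Scaled RPKM (linear axes from 0) of the 6 collagen chain mRNAs of highest mean, by group. Points are samples, open where the library belongs to the smaller cluster, and bars are the mean ± SD (n = 6, NC 72 h n = 5). Col1a2, Col1a1 and Col5a2 lie higher in both 72 h groups than in NC 24 h, and for Col3a1 all KD 72 h samples sit at 205 to 223 while NC 72 h spreads from 217 to 509.

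The control groups show how collagen mRNAs moved between 24 h and 72 h after transfection while the cells differentiated. Per the study's methods, cells were detached with trypsin on day 1 of differentiation and transfected as they were plated anew. Those harvested at 72 h had received fresh medium after 24 h. Time since replating and progress of differentiation thus cannot be told apart in this comparison. In NC, 7 of 19 tested chains rose and 0 fell, beside 4.63% of all tested table entries higher and 4.47% lower (limma on log2 values, Benjamini-Hochberg adjusted p under 0.05). At an unadjusted p under 0.05, 11 chains passed, beside 12047 of 52834 entries, and among these chains Col5a3 alone was lower. The count-weighted fit voom on recovered reads called 9 higher and 1 lower, Col5a3 at -0.43 (adjusted p = 0.039). The chains that rose were both type I chains, Col5a2, Col12a1 and Col16a1 of the FACIT class, Col8a2 and Col6a1.

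Col1a2 measured 310, 343 and 365 scaled RPKM in NC 24 h (lowest, median and highest) and 652, 669, 505, 434 and 613 in the samples of NC 72 h. No sample of one time reached the range of the other, and the log2 fold change was 0.74 ± 0.10 (SE, adjusted p = 0.00043). Col1a1 went from 118, 131 and 143 to 245, 268, 165, 162 and 224, again without overlap, by 0.66 ± 0.12 (adjusted p = 0.0038). Col5a2, the α2 chain of type V collagen, went from 47.7, 51.9 and 64.9 to 79.5, 88.7, 91.4, 81.7 and 81.1, by 0.64 ± 0.10 (adjusted p = 0.00073), and its ranges were separate too. Col3a1 measured 233, 264 and 269 at 24 h and 442, 509, 232, 217 and 419 at 72 h. The NC 72 h samples of Col3a1 thus fell into 3 above and 2 below the range of NC 24 h, and the change of 0.40 ± 0.19 was not called (adjusted p = 0.23). Those 2 samples, replicates 4 and 5, are the ones of the smaller cluster.

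Col12a1, the chain of a FACIT collagen found on fibrils under load, had the largest called change of the abundant chains. It measured 17.6, 21 and 25.5 in NC 24 h and 57.3, 80.3, 28.7, 39.5 and 54.1 in NC 72 h, without overlap, and rose by 1.24 ± 0.21 (adjusted p = 0.0017). Col16a1, another FACIT, went from 1.18, 1.6 and 1.73 to 4.97, 3.57, 2.92, 2.24 and 2.68, by 1.01 ± 0.22 (adjusted p = 0.011), with separate ranges. Col8a2, a chain of the short-chain type VIII collagen, went from 0.143, 0.313 and 0.712 to 0.853, 0.476, 1.66, 1.71 and 0.711, by 1.35 ± 0.40 (adjusted p = 0.049). Its ranges overlapped, it had 242 reads in all libraries together and passed the filter through its higher group. Col6a1, the α1 chain of type VI collagen, rose by 0.32 ± 0.08 (adjusted p = 0.025), from 70.6, 78 and 85.8 to 106, 101, 100, 85.2 and 90.4. The call of Col6a1 was lost without NC 24 h replicate 1 or 2 or NC 72 h replicate 1 or 2 and 3, at 0.28 to 0.30 (adjusted p = 0.057 to 0.068). That of Col8a2 was lost without any of NC 24 h replicates 1 to 5 or NC 72 h replicates 1, 4, 5 and 6, at 1.17 to 1.47 (adjusted p = 0.051 to 0.12).

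The basement membrane and multiplexin chains showed no called change over the same time. The log2 fold change was -0.06 ± 0.09 for Col4a1, -0.03 ± 0.11 for Col4a2, -0.04 ± 0.10 for Col15a1 and -0.31 ± 0.15 for Col18a1, whose product also yields the fragment endostatin. Type VI was split, with 0.04 ± 0.09 for Col6a2 and -0.10 ± 0.08 for Col6a3 beside the called Col6a1. Within type V, Col5a1 changed by 0.20 ± 0.11 and Col5a3 by -0.42 ± 0.15 (adjusted p = 0.31 and 0.10). Col8a1 at 1.41 ± 0.45 and Col4a5 at 0.86 ± 0.26 were not called (adjusted p = 0.066 and 0.054). Col8a1 was called without NC 24 h replicate 5, at 1.61, or NC 72 h replicates 2 and 3, at 1.72 (adjusted p = 0.042 and 0.029), and Col4a5 without NC 24 h replicate 2, at 0.96, or NC 72 h replicate 6, at 1.02 (adjusted p = 0.045 and 0.027). In the larger cluster of libraries the called chains other than Col8a2, which was not tested there, changed by 0.40 (Col6a1) to 1.71 (Col12a1), and in the smaller cluster the 7 changed by 0.17 (Col6a1) to 1.58 (Col8a2). Col3a1 changed by 0.77 in the larger cluster and -0.13 in the smaller. Over the same interval Adipoq, the adipokine adiponectin, fell by 0.43 on the log2 scale and the thermogenic gene Ucp1 rose by 2.49; of 8 fibroblast markers 4 were tested, and of these Thy1 was called, with a rise of 0.75. The mesothelial marker Wt1 rose by 3.51, at 0.00 to 0.601 in NC 24 h and 0.948 to 12.5 in NC 72 h. It passed the filter through its higher group. Krt19, the other mesothelial gene tested, changed by 0.06 and was not called. The macrophage marker Csf1r rose by 0.82, while Lyz2, the other leukocyte gene tested, changed by 0.23 and was not called. The part of these cell type markers in the collagen values was not tested.

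**Figure D2:**
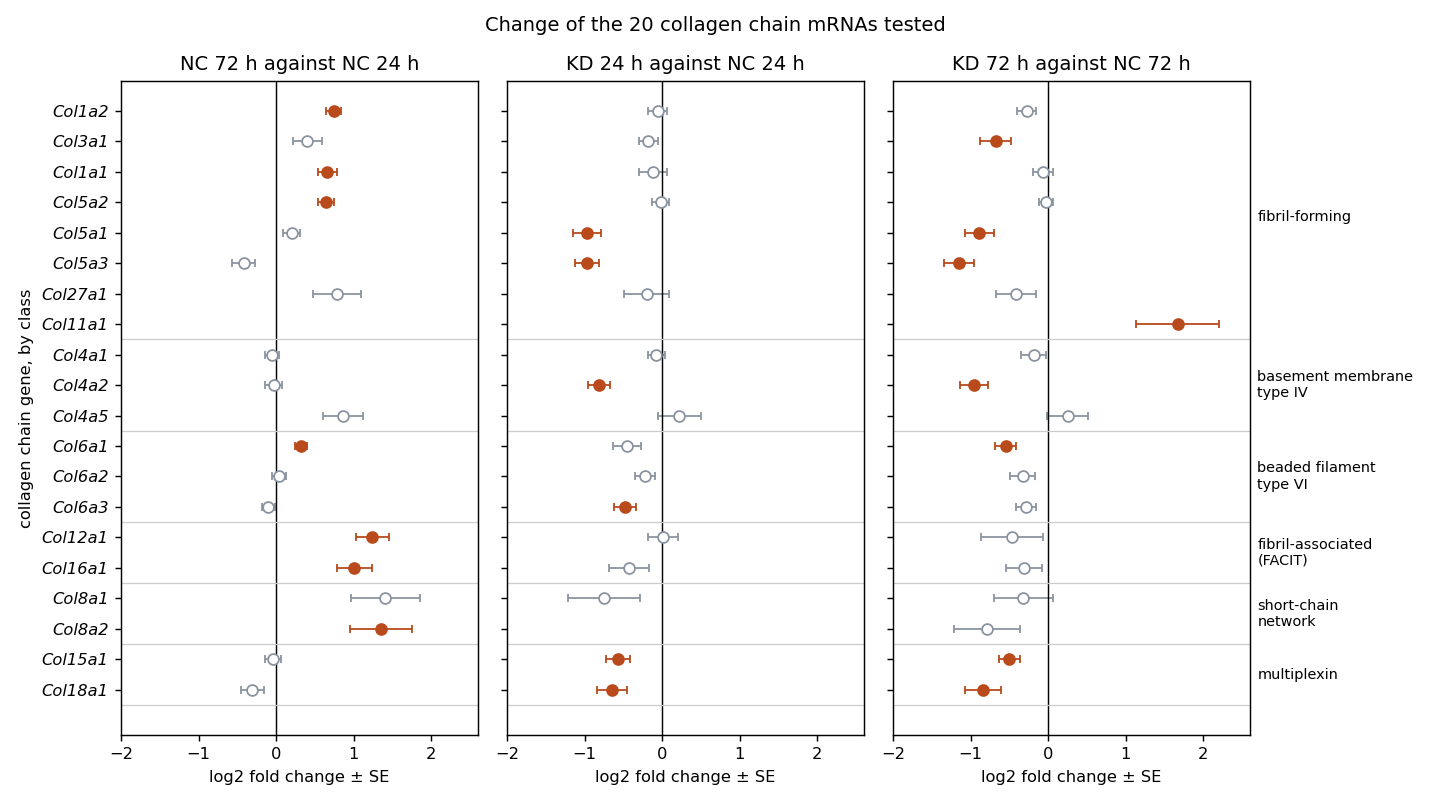
Log2 fold change ± SE (horizontal axes) of the 20 tested collagen chain mRNAs, ordered by class and mean level, in 3 comparisons; filled points passed an adjusted p under 0.05, open points did not, and a chain without a point was not tested in that comparison. In control, FACIT, short-chain and fibrillar genes other than Col5a3 lie to the right of 0, and in KD the filled points lie to the left except Col11a1 at 72 h.

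Knockdown of Ctcflos was compared with the control at 24 h. Here 6 of 18 tested chains fell and 0 rose, beside 11.8% of all tested entries lower and 10.9% higher. At an unadjusted p under 0.05, 7 of 18 chains passed, the 6 and Col6a1, beside 19375 of 52004 entries, a similar share. The voom fit also called 6. The chains that fell were Col5a1 and Col5a3 of type V, Col4a2 of type IV, Col6a3 of type VI and the multiplexins Col15a1 and Col18a1. They therefore came from 4 of the 6 classes with a tested chain, and in 3 of these a partner chain of the same collagen type was not called.

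Col5a3, the α3 chain of type V collagen, measured 9.95, 10.9 and 12.5 scaled RPKM in NC 24 h and 3.99, 5.79 and 7.13 in KD 24 h, and dropped by 0.97 ± 0.16 in log2 terms (adjusted p = 0.0012). Col5a1, the α1 chain, went from 12.6, 12.8 and 15.2 to 4.82, 6.95 and 9.55, and fell by 0.97 ± 0.18 (adjusted p = 0.0027). Col4a2 went from 23.3, 28.7 and 33.6 to 13.7, 16 and 20.4, and fell by 0.82 ± 0.14 (adjusted p = 0.0013). For these 3 chains every KD sample lay below every control sample, though the share of all tested entries with such separate groups was not counted. Col18a1 went from 11.4, 13.1 and 13.6 to 5.05, 8.33 and 11.5, with a slight overlap, and fell by 0.65 ± 0.19 (adjusted p = 0.024). Col15a1 fell by 0.57 ± 0.15 (adjusted p = 0.014) and Col6a3 by 0.48 ± 0.14 (adjusted p = 0.027), both with overlapping ranges. The call of Col6a3 was lost without KD 24 h replicate 5, at -0.43 (adjusted p = 0.063), and without NC 24 h replicate 5 or 6, at -0.46 (adjusted p = 0.057 and 0.055). The call of Col18a1 was lost with the table entry of highest mean of any source, at -0.39 (adjusted p = 0.24). On deposited RPKM the calls of Col18a1 at -0.59 and Col6a3 at -0.42 were lost (adjusted p = 0.06 and 0.081). Within the larger cluster those of Col18a1 at -0.38, Col6a3 at -0.29 and Col15a1 at -0.56 were lost (adjusted p = 0.14, 0.22 and 0.069). Within the smaller cluster those of Col15a1 at -0.6 and Col5a3 at -0.84 were lost (adjusted p = 0.068 and 0.076).

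The abundant fibrillar chains were not called. Col1a1 measured 85.5, 121 and 193 in KD 24 h against 118, 131 and 143 in control, a change of -0.12 ± 0.18. Col1a2 measured 273, 313 and 413 against 310, 343 and 365, a change of -0.06 ± 0.12, and Col3a1 187, 222 and 303 against 233, 264 and 269, a change of -0.18 ± 0.12. In all 3 genes the KD samples spread to either side of the control range, and the adjusted p was 0.65, 0.76 and 0.31. Col1a1 was called lower with the table entry of highest mean of any source, at -0.46 (adjusted p = 0.015), and within the smaller cluster, at -0.60 (adjusted p = 0.019). Col5a2 measured 49.8, 51.9 and 64.2 against 47.7, 51.9 and 64.9, a change of -0.02 ± 0.11. Col4a1 measured 61.9, 67.5 and 83.9 against 65.7, 72.3 and 85.3, a change of -0.08 ± 0.11. Both overlapped over nearly their whole range.

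Type VI lay between. Col6a1 measured 28.9, 63.3 and 67.7 in KD 24 h and 70.6, 78 and 85.8 in NC 24 h, so that the ranges were separate, yet the change of -0.46 ± 0.18 was not called (adjusted p = 0.078). Its lowest KD sample, replicate 6, is also the shallowest library, with 1391832 mapped reads; without it the change was -0.27 and was called (adjusted p = 0.029), and so was that of Col16a1, at -0.63 (adjusted p = 0.047) against -0.43 ± 0.26 with it. Col6a2 changed by -0.22 ± 0.13. Col12a1 at 0.01 ± 0.19 and Col4a5 at 0.22 ± 0.28 were not called, and neither was Col8a1 at -0.75 ± 0.46. Within the larger cluster the 6 called chains changed by -0.29 (Col6a3) to -1.04 (Col5a3), and within the smaller by -0.60 (Col15a1) to -1.18 (Col18a1). Col1a1 changed by 0.12 in the larger cluster. Cell type markers moved in this comparison too. The adipocyte genes summed to 36700 to 50200 scaled RPKM in KD 24 h and 49200 to 52000 in NC 24 h, and the thermogenic genes to 325 to 475 and 453 to 881. Most of the adipocyte sum was Fabp4, with means of 40000 and 45100. On the log2 scale Adipoq fell by 0.55, Pparg by 0.44 and Lipe by 0.42, while Fabp4, Plin1 and Cd36 were not called. Ucp1 fell by 1.16, Elovl3 by 1.06, Cidea by 0.64 and Cox7a1 by 0.57, while Ppargc1a was not called. Csf1r rose by 1.22, and Lyz2, the other leukocyte gene tested, changed by -2.42 and was not called (adjusted p = 0.083). The mesothelial marker Krt19 rose as well (adjusted p = 0.0095). The fibroblast and progenitor genes summed to 402 to 808 and 439 to 1030, the smooth muscle genes to 186 to 861 and 505 to 1470, the mesothelial genes to 24.8 to 76.9 and 19.2 to 26.3, and the leukocyte genes to 2.59 to 18.2 and 4.67 to 27.1. Ly6a made most of the fibroblast and progenitor sum, and Krt19 most of the mesothelial sum. The part of these markers in the collagen values was not tested.

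At 72 h, 7 of 20 tested chains fell in KD, beside 12% of all tested entries lower, and 1 rose, beside 10.3% higher. Col5a3, Col4a2, Col5a1, Col18a1, Col3a1, Col6a1 and Col15a1 fell and Col11a1 rose. At an unadjusted p under 0.05, 10 chains passed, beside 19322 of 54446 entries. The KD 72 h and KD 24 h comparisons have different libraries on both sides, but NC 72 h and NC 24 h also enter the comparison over time.

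Col5a3 measured 9.66, 10.8, 6.35, 7.7 and 7.59 scaled RPKM in NC 72 h and 2.83, 3.71 and 5.03 (lowest, median and highest) in KD 72 h, and dropped by 1.15 ± 0.19 in log2 (adjusted p = 0.00094). Col4a2 measured 28.6, 28.8, 29.7, 27.8 and 25.9 against 10.5, 13.5 and 23.7, and fell by 0.96 ± 0.18 (adjusted p = 0.0022). Col5a1 measured 15.4, 17.3, 15.4, 15.5 and 13.2 against 5.68, 8.15 and 13, and fell by 0.89 ± 0.19 (adjusted p = 0.0043). In each of these 3 the ranges were separate, as they were at 24 h, although the highest KD sample of Col5a1 came close to the lowest control. The share of all entries with separate ranges was not counted here either. Col18a1 measured 7.11, 12.1, 12.6, 10.2 and 10.6 against 3.85, 5.22 and 9.93, with overlap, and fell by 0.84 ± 0.23 (adjusted p = 0.019). Col15a1 fell by 0.50 ± 0.14 (adjusted p = 0.020), and without NC 72 h replicates 2 and 3 by 0.43, which was not called (adjusted p = 0.056).

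Col3a1 was lower in KD than in control at this time, at 205, 215 and 223 against 442, 509, 232, 217 and 419 in NC 72 h, and fell by 0.68 ± 0.20 (adjusted p = 0.024). The KD samples were nearly alike, while the 2 control samples of the smaller cluster, at 232 and 217, lay just above or within the KD range. Within the larger cluster the change of Col3a1 was -1.09, and within the smaller it was -0.06. The call was lost without NC 72 h replicate 1, replicates 2 and 3, or replicate 6, at -0.59, -0.53 and -0.61 (adjusted p = 0.065, 0.061 and 0.062). Col6a1 measured 106, 101, 100, 85.2 and 90.4 against 52, 59.8 and 91.7, with overlap, and fell by 0.55 ± 0.14 (adjusted p = 0.012). Type I chains were again not called, with 183, 199 and 217 for Col1a1 in KD 72 h (-0.07 ± 0.13, adjusted p = 0.74) and 396, 467 and 556 for Col1a2 (-0.28 ± 0.12, adjusted p = 0.12). Within the larger cluster both were called, at -0.31 and -0.54 (adjusted p = 0.024 and 0.00082), and with entries of any source Col1a1 was called at -1.15 (adjusted p = 0.045). Without NC 72 h replicate 5, Col1a2 was called, at -0.38 (adjusted p = 0.034), and without KD 72 h replicate 6 so were Col6a2 at -0.45 and Col6a3 at -0.40 (adjusted p = 0.026 and 0.014). Col5a2 at 73.5, 82.5 and 98.2 changed by -0.03 ± 0.09 and Col4a1 at 46.6, 59.1 and 89.7 by -0.19 ± 0.16, and their ranges overlapped those of the control.

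Col11a1, a minor fibrillar chain best known from cartilage, was the chain that rose. It measured 0.00, 0.245, 1.36, 0.863 and 0.797 in NC 72 h and 1.4, 1.6 and 1.84 in KD 72 h, and rose by 1.67 ± 0.54 (adjusted p = 0.040). The ranges were separate, but the gene had 496 reads in all libraries and passed the filter through its higher group. Of the 11 fits that left out a sample, 8 lost the call, those without any KD 72 h replicate, NC 72 h replicate 1 or NC 72 h replicates 2 and 3, at 1.07 to 1.71 (adjusted p = 0.05 to 0.09). At 24 h it was at 0.128, 0.249 and 0.431 in NC and 0.0904, 0.231 and 0.367 in KD and was not tested.

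Cluster membership moved with the size of the 72 h changes. The 7 chains that fell changed by -0.73 (Col15a1) to -1.41 (Col5a3) in the larger cluster and by -0.06 (Col3a1) to -0.70 (Col5a3) in the smaller, where each side has 2 samples. On the RPKM as deposited, without the common scale, the median of all entries was 0.25 higher in KD than in NC at 72 h, and the calls of Col3a1 at -0.43, Col6a1 at -0.30, Col15a1 at -0.25 and Col18a1 at -0.59 were lost (adjusted p = 0.11, 0.19, 0.26 and 0.096). The part of the clusters in the collagen changes was not tested. Markers of other cell types moved with the same comparison. The summed level of the 5 thermogenic genes was 379 to 728 scaled RPKM in KD 72 h and 1260 to 2120 in NC 72 h, and that of the 6 adipocyte genes, again mostly Fabp4, was 25200 to 33200 and 36300 to 47100. The 8 fibroblast and progenitor markers, mostly Ly6a, summed to 692 to 878 and 395 to 1030. Of these Cd34 rose by 2.01 and Pdgfrb by 0.59 on the log2 scale. Ly6a at 0.27, Thy1 at -0.04 and Pdgfra at -0.3 were not called. Cd34 measured 1.06 to 2.7 in KD 72 h and 0.15 to 0.735 in NC 72 h, and it passed the filter through its higher group. The 5 smooth muscle genes summed to 269 to 371 and 359 to 1090, and the 4 mesothelial genes to 96.3 to 164 and 20.3 to 40.5, of which Krt19 alone made 95.4 to 161 in KD 72 h while Upk3b was at 0 in every library. Krt19 rose by 2.54, while Wt1, the other mesothelial gene tested, changed by -1.5 and was not called (adjusted p = 0.079). The 5 leukocyte genes summed to 5.5 to 10.6 and 7.81 to 29.9, where Lyz2 fell by 3.68 and Csf1r rose by 1.23 on the log2 scale, and the leukocyte-wide marker Ptprc measured at most 0.0995 in KD 72 h and 0.154 in NC 72 h. The part of these markers in the collagen values was not tested.

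**Figure D3:**
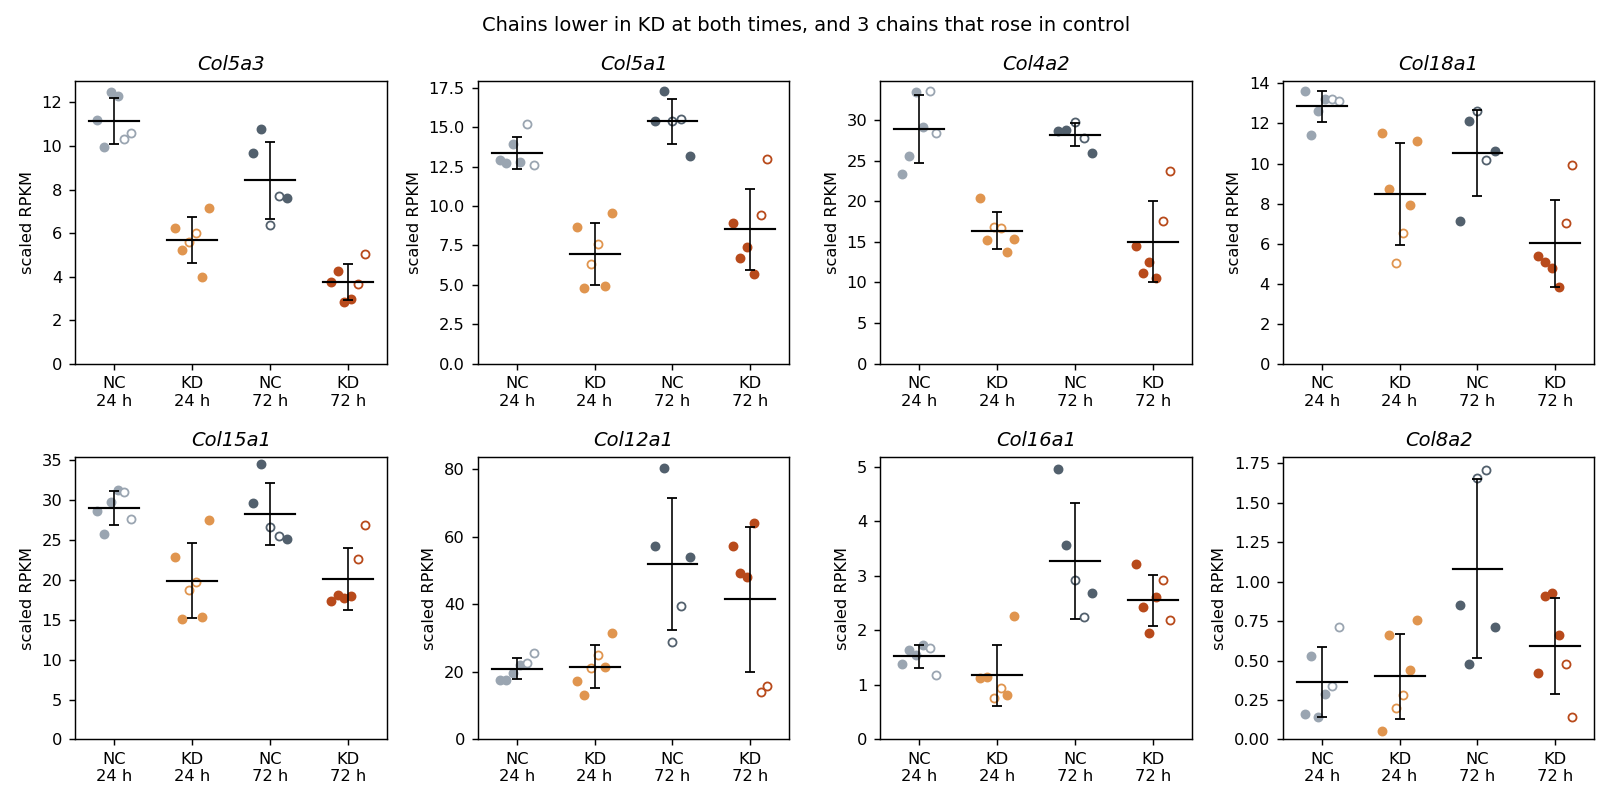
Scaled RPKM (linear axes from 0) of the 5 chains called lower in KD at both times and of 3 chains that rose in control from 24 h to 72 h. Points are samples, open for the smaller cluster, and bars are the mean ± SD (n = 6, NC 72 h n = 5). For Col5a3, Col5a1 and Col4a2 every KD sample lies below every control sample of its time, and for Col5a1 and Col4a2 the open KD 72 h points lie above the filled ones.

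The size of the KD change did not differ detectably between 24 h and 72 h. In a fit with an interaction of knockdown and time, limma called 0 of 20 chains, beside 0.187% of all tested entries (0.113% higher and 0.0741% lower), and voom also called 0. At an unadjusted p under 0.05, 1 chain passed, Col11a1, at 1.80 ± 0.64 (adjusted p = 0.25), beside 6995 of 59411 entries. For the 5 chains called at both times the difference of the log2 fold changes, 72 h minus 24 h, was -0.17 ± 0.24 for Col5a3, 0.08 ± 0.26 for Col5a1, -0.15 ± 0.23 for Col4a2, -0.19 ± 0.30 for Col18a1 and 0.07 ± 0.20 for Col15a1. For Col3a1, called at 72 h and not at 24 h, it was -0.50 ± 0.24 (adjusted p = 0.43), so that a difference between the times was not shown over all samples. Within the larger cluster the Col3a1 difference was -1.0 and was called (adjusted p = 0.0072), and within the smaller it was 0.30. Within the smaller cluster Col1a1 was called at 0.88 (adjusted p = 0.0084) and Col12a1 at -1.12 (adjusted p = 0.05).

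Chains of the same collagen type are assembled together, and their ratio within a sample does not depend on the scaling between samples. After the values above had been seen, 6 ratios were compared in the 3 group comparisons with exact permutation tests (two-sided) on log2 ratios, with adjustment over these 18. The adjustment does not cover that choice, and the ratios draw on the same levels as the calls above. The smallest p that the design allows is 0.0022 for 6 against 6 samples and 0.0043 for 6 against 5.

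Col4a2 stood at 0.355, 0.392 and 0.402 of Col4a1 in NC 24 h (lowest, median and highest) and at 0.193, 0.232 and 0.266 in KD 24 h. At 72 h the ratio was 0.373, 0.387 and 0.441 in NC and 0.202, 0.227 and 0.264 in KD. The control ranges of the 2 times nearly coincided and both KD ranges lay below them. The log2 ratio was lower in KD by 0.74 ± 0.07 at 24 h (SE, exact p = 0.0022, the smallest possible, adjusted 0.0097) and by 0.77 ± 0.07 at 72 h (exact p = 0.0043, also the smallest, adjusted 0.0097). It differed by 0.03 ± 0.05 between the control times (exact p = 0.56, adjusted 0.61). In the larger cluster the KD differences were -0.81 and -0.77 and in the smaller -0.61 and -0.76. On GRCm38 (GENCODE M21) the genes lie head to head on chromosome 8, Col4a1 on the minus strand from 11198423 to 11312826 and Col4a2 on the plus strand from 11312805 to 11449287, so that their annotated first exons overlap by 22 bases.

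In type V, Col5a1 stood at 0.204, 0.256 and 0.27 of Col5a2 in NC 24 h and at 0.0966, 0.127 and 0.175 in KD 24 h. At 72 h the ratio was 0.163, 0.189 and 0.195 in NC and 0.0773, 0.101 and 0.133 in KD. Groups were separate in all 3 comparisons: the log2 ratio was lower in KD by 0.96 ± 0.15 at 24 h and 0.87 ± 0.13 at 72 h, and lower at 72 h than at 24 h in control by 0.44 ± 0.08 (exact p = 0.0022, 0.0043 and 0.0043, the smallest possible, adjusted 0.0097 each). Col5a3 stood at 0.158, 0.215 and 0.251 of Col5a2 in NC 24 h, at 0.0801, 0.105 and 0.131 in KD 24 h, at 0.0695, 0.0942 and 0.122 in NC 72 h and at 0.0365, 0.0446 and 0.0516 in KD 72 h. Its log2 ratio was lower in KD by 0.97 ± 0.15 at 24 h and 1.14 ± 0.17 at 72 h, and lower at 72 h than at 24 h in control by 1.07 ± 0.18, with the same exact and adjusted p-values. In the larger cluster the KD differences at 24 h and 72 h were -1.09 and -1.03 for Col5a1 and -1.17 and -1.37 for Col5a3, and in the smaller -0.71 and -0.54, and -0.57 and -0.77. In type V the shift in KD and the shift with time thus had the same sign, but different chains moved. Over time in control Col5a2 rose by 0.64 ± 0.10, while Col5a1 at 0.20 ± 0.11 and Col5a3 at -0.42 ± 0.15 were not called. In KD Col5a1 and Col5a3 fell, while Col5a2 changed by -0.02 ± 0.11 at 24 h and -0.03 ± 0.09 at 72 h. In type IV the ratio shifted in KD and a shift with time was not detected.

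Type I and type VI showed smaller shifts. Col1a2 stood at 2.40, 2.61 and 2.68 times Col1a1 in NC 24 h and at 2.06, 2.78 and 3.27 in KD 24 h, a log2 difference of 0.07 ± 0.11 (exact p = 0.58, adjusted 0.61). At 72 h it was 2.5, 2.68 and 3.05 in NC and 2.11, 2.35 and 2.64 in KD, a difference of -0.21 ± 0.08 (exact p = 0.022, adjusted 0.039) with overlapping ranges. This value depends on the table entry, since the entries of highest mean of any source gave a difference of 1.00 in the opposite direction (exact p = 0.039, adjusted 0.070). Col6a1 to Col6a2 rose in control with time by 0.28 ± 0.08 (exact p = 0.0087, adjusted 0.017). In KD it was lower by 0.24 ± 0.18 at 24 h and 0.22 ± 0.09 at 72 h, neither of which passed (adjusted exact p = 0.30 and 0.078). The 3 differences of Col6a3 to Col6a2 lay between -0.26 and 0.04 and did not pass.

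**Figure D4:**
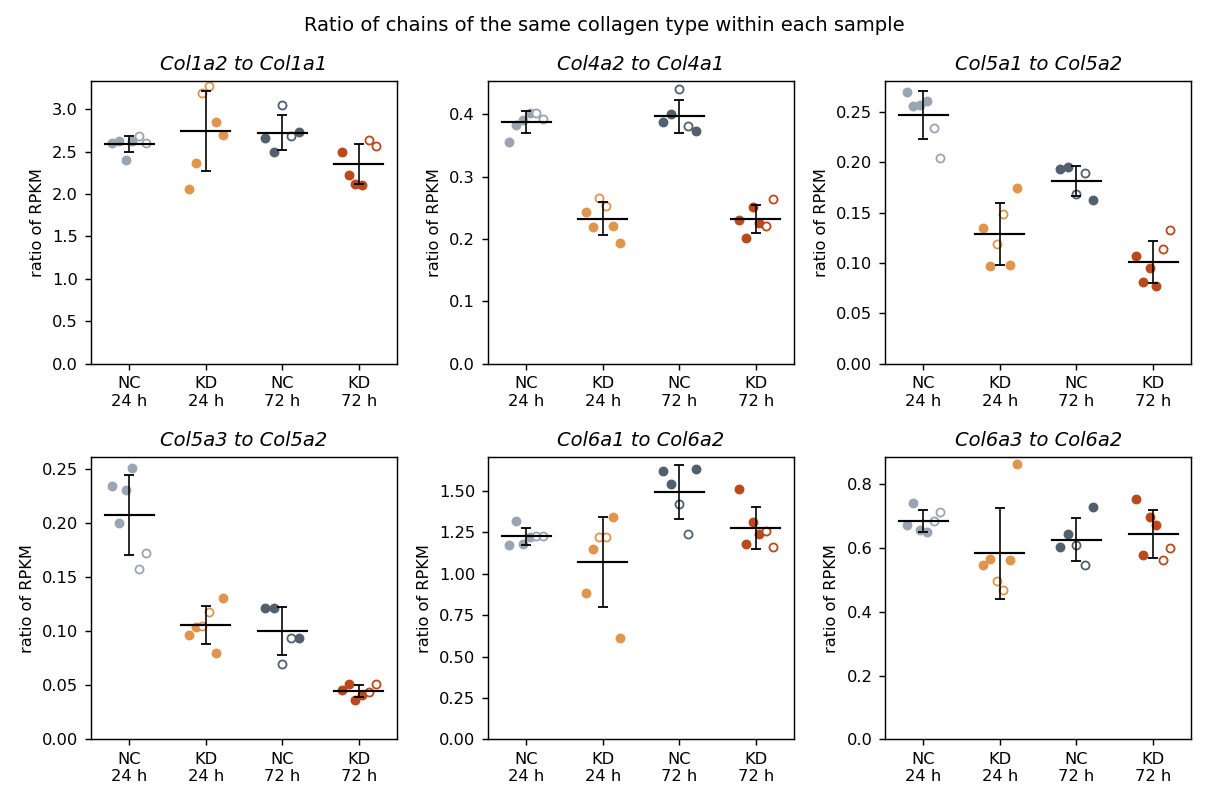
Ratio of the RPKM of chains of the same collagen type within each sample (linear axes from 0), by group. Points are samples, open for the smaller cluster, and bars are the mean ± SD (n = 6, NC 72 h n = 5). KD samples lie below their controls for Col4a2 to Col4a1, Col5a1 to Col5a2 and Col5a3 to Col5a2, and overlap them for the type I and type VI ratios.

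Promoters are shown for 3 chains called lower in KD, the type V chains Col5a1 and Col5a3, which fell at both times and whose genes lie on different chromosomes, and Col3a1, called at 72 h. Given are the 250 bases before the RefSeq start on GRCm38.p6, 5′ to 3′ on the strand of the gene, with capitals at 3 motifs, read on either strand: the CCAAT box, the GC box, spelled GGGCGG, and the TATA box, spelled TATAAA.
Col5a1, chr2:27886175-27886424, plus strand: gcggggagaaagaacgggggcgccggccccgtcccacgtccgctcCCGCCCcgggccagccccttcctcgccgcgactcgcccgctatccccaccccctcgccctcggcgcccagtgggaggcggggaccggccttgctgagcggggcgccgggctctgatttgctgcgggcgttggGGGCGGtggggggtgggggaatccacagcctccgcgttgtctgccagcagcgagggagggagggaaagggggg
Col5a3, chr9:20815068-20815317, minus strand: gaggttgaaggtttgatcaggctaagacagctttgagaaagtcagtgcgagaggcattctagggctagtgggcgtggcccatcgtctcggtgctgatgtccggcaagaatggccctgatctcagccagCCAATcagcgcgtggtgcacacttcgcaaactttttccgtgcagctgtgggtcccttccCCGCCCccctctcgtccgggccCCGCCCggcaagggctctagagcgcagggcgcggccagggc
Col3a1, chr1:45311288-45311537, plus strand: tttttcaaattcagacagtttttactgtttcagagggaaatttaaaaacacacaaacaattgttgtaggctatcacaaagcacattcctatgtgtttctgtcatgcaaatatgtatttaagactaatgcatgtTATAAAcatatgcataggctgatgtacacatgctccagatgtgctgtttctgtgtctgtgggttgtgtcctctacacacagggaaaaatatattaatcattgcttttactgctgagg
The windows of Col5a1 and Col5a3 each hold GGGCGG at 2 places and have 76.4% and 62.8% of G and C, and that of Col3a1 holds neither GGGCGG nor CCAAT and has 35.2%, beside a median of 52.4% over 32851 RefSeq promoters. GGGCGG occurs in 32.7% of all these windows and in 12 of the 17 tested chains with a window, CCAAT in 33.8% and in 8 of the 17, and TATAAA in 12.4% and in 1, Col3a1. The shares over all promoters count windows, whereas a chain was counted when any window of its gene held the motif. In Col3a1 the TATAAA match begins 117 bases before the RefSeq start. These matches are a description of letters and say nothing of binding.

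Genes that make, process, cross-link, bind and degrade collagen were read from the same fits, in a list of 59 genes. Over time in control 16 of 47 tested rose and 1 fell; in KD at 24 h 4 of 44 rose and 11 fell; at 72 h 6 of 48 rose and 7 fell. The interaction called 0 of 51 with limma and 0 with voom, and 10 passed an unadjusted p under 0.05, beside 6995 of 59411 entries. The shares called, 36.2%, 34.1% and 27.1%, stand beside 9.1%, 22.7% and 22.3% of all tested entries. By direction, 4.63%, 10.9% and 10.3% of all tested entries were higher and 4.47%, 11.8% and 12% lower. The 72 h counts of list genes in either direction thus lie near these shares.

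By role, the list genes that fell in KD at 24 h were 3 of 7 tested chaperone and export genes, 2 of 11 hydroxylation genes, 2 of 4 propeptide cleavage genes, 2 of 7 fibril-binding genes, 1 of 4 cross-linking genes and 1 of 3 receptors. At 72 h they were 2 of 7, 2 of 11, 2 of 4, 0 of 7, 0 of 5 and 1 of 5. Of all tested entries 11.8% were lower at 24 h and 12% at 72 h. Each role holds at most 11 tested genes, so that these counts are a description. Sec24d, a coat protein of the vesicles that carry procollagen out of the endoplasmic reticulum, measured 9.88, 11.3 and 13.2 scaled RPKM in NC 24 h and 2.79, 3.59 and 4.63 in KD 24 h, and fell by 1.63 ± 0.16 at 24 h and 0.77 ± 0.15 at 72 h on the log2 scale (adjusted p = 5.9e-05 and 0.0026). Adamts2, which removes the amino-terminal propeptide of fibrillar procollagens, measured 8.37, 10.4 and 11.4 against 3.39, 4.88 and 5.09 at 24 h, and fell by 1.15 ± 0.16 and 1.18 ± 0.18 (adjusted p = 0.00046 and 0.00039). Neither gene's KD 24 h samples reached the control range. P4ha3, a catalytic subunit of prolyl 4-hydroxylase, fell by 0.94 ± 0.17 at 24 h (adjusted p = 0.0023), as did Sec23a, the partner of Sec24 proteins, by 0.80 ± 0.23 (adjusted p = 0.024). At 72 h Plod2, a lysyl hydroxylase, fell by 0.73 ± 0.18 (adjusted p = 0.011). Serpinh1, the collagen chaperone HSP47, fell by 0.48 ± 0.10 at 24 h and 0.57 ± 0.11 at 72 h (adjusted p = 0.0054 and 0.0025).

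Itga11, the α subunit of a receptor for fibrillar collagen, fell at 72 h by 2.32 ± 0.37 (adjusted p = 0.00067). It measured 1.3 to 3.29 scaled RPKM in NC 72 h and 0.0815 to 0.678 in KD 72 h, and in control it had risen by 2.39 ± 0.29 from 24 h (adjusted p = 0.00018). In both comparisons it passed the filter through its higher group. Among the genes that rose in KD, degradation genes and their inhibitors were 2 of 8 tested at 24 h and 3 of 9 at 72 h. Of all tested entries 10.9% and 10.3% were higher. On deposited RPKM 10 list genes rose and 5 fell at 72 h, where 13166 of 54446 entries were higher and 3102 lower. Fn1, the matrix protein fibronectin, rose in KD by 0.65 ± 0.19 at 24 h (adjusted p = 0.025), together with Mmp11, a matrix metalloproteinase, by 0.61 ± 0.18 (adjusted p = 0.027), the cross-linking enzyme Lox by 0.55 ± 0.13 (adjusted p = 0.0089) and the protease inhibitor Timp1 by 0.36 ± 0.11 (adjusted p = 0.032). At 72 h the fibril-binding proteoglycan Lum rose by 1.25 ± 0.23 (adjusted p = 0.0017), Timp3 by 0.82 ± 0.25 (adjusted p = 0.027), Timp2 by 0.65 ± 0.11 (adjusted p = 0.0011) and the gelatinase Mmp2 by 0.60 ± 0.16 (adjusted p = 0.016). For Lum, KD 72 h lay at 25.6 to 51.6 and NC 72 h at 10.5 to 22.5, without overlap, and in control Lum fell by 0.88 ± 0.20 with time (adjusted p = 0.013), the list gene that was called lower. Beside Itga11, the largest rises with time in control were those of Mmp11 by 1.67 ± 0.16, Timp3 by 1.56 ± 0.32 and Lox by 1.26 ± 0.18 (adjusted p = 3.5e-05, 0.0064 and 0.00048).

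Within the smaller cluster several of these changes were smaller than in the larger one. With the larger cluster named before the smaller, the 24 h change of Sec23a was -0.99 and -0.42, that of Fn1 0.94 and 0.06, and that of Timp1 0.44 and 0.21. At 72 h the change of Sec24d was -1.02 and -0.33, that of Lum 1.67 and 0.54, that of Timp2 0.82 and 0.37, and that of Timp3 1.19 and 0.32. Over time in control, Lum changed by -1.24 and -0.29. For Adamts2 the 24 h changes were -1.16 and -1.13. Its 72 h changes were -1.42 and -0.81, and those of Itga11 -2.57 and -1.97.

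The genes whose pattern over the 23 samples was most like that of Col1a1, Col1a2 and Col3a1 were sought among 10217 other genes with a RefSeq mRNA, by Pearson's correlation with the mean of the standardised log2 levels of these 3 chains. The 5 closest were the metallothionein Mt2 and C1qtnf6 at 0.88 each, and the cell surface proteoglycan Sdc1, the lysyl oxidase-like enzyme Loxl2 and the metal transporter Slc39a14 at 0.87 each. The points share libraries, groups and clusters, and the values are a description.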

How the data were processed

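Libraries were made by bulk RNA barcoding and sequencing of 3′ ends, and the study's methods call the replicates of a group biological. Per the study's methods, tags were aligned to NCBI RefSeq and analysed in the Genomatix suite. The authors deposited RPKM for 168326 transcript entries (RefSeq, Ensembl and GenBank) in 24 libraries; the build and strand handling behind the table are not given in the sources used here. Entries of a gene overlap, so that reads can enter several. The table writes RPKM with decimal commas.

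Library totals and read numbers were recovered from the steps of the RPKM (94.1% to 94.7% of low values whole within 0.05 reads), and no molecular identifiers are named in the methods, so that floors cover counting error only. Entries were tested when worth 10 reads of the median library in a number of samples no smaller than the smaller group, and 15 in total. RPKM were scaled once over all samples by a trimmed mean of log ratios. Then limma 3.58.1 (R 4.3.3; lmFit, eBayes with trend) was fitted to log2(scaled RPKM + 0.1), with Benjamini-Hochberg adjustment over all tested entries, two-sided, and a call at an adjusted p under 0.05. The log2 fold changes are on that scale, which understates changes of low genes. Adjusted p-values are those of limma unless an exact test is named. Chain ratios used scipy 1.17.1. Whether ranges were separate was read for named genes only, without a share over all entries.

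Replicate numbers did not pair samples (mean correlation of deviations of equal numbers -0.05 at 24 h and 0.03 at 72 h). Values by sample are given for the 6 most abundant chains, the 4 called with the largest change in each direction per comparison and any called in the interaction, with the 4 largest per direction for the handling genes; Serpinh1, the remaining abundance ranks and the chain ratios were chosen after their values were seen. The members, lists and tests were chosen with earlier results of these data known. Collagen classes and gene roles are textbook knowledge. Alternatives covered scaling, pseudocount, filter, entry choice, replicate block, voom on recovered reads, left-out samples and the library clusters.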

Additional observations from a re-analysis of the deposited data

Results flagged for a closer look

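Within groups, the highest or lowest sample of each of the 20 tested chains was compared with its neighbours by Dixon's criterion, in 80 groups of 5 or 6 samples. In 6 a sample stood apart, and chance flags about 1 in 20 groups. In KD 24 h replicate 6, the shallowest library, Col16a1 was at 2.27 scaled RPKM with the others at 0.753 to 1.14, and Col6a1 was at 28.9 with the others at 60.4 to 67.7. In KD 24 h replicate 1, Col5a2 was at 64.2 with the others at 49.8 to 54.5, and Col6a2 was at 75.1 with the others at 45 to 55.6. Col3a1 was at 233 in NC 24 h replicate 6, with the others at 259 to 269. Col8a1 was at 0.66 in KD 72 h replicate 2, with the others at 2.11 to 2.32.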

How the results depend on the processing

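Of the collagen chains called in a comparison, 0 of 507 refitted values changed sign; of those not called, 93 of 1574 did, the interaction included. Collagen chains called over time numbered 4 with the replicate block, 0 within the smaller cluster and 5 to 7 with a sample left out. In KD at 24 h they numbered 4 on deposited RPKM, 3 within the larger cluster, 5 with the block and 5 to 8 with a sample left out. At 72 h they numbered 4 on deposited RPKM, 4 with the block, 13 and 2 within the larger and smaller clusters and 5 (without NC 72 h replicates 2 and 3) to 9 (without KD 72 h replicate 6) with a sample left out. The interaction called 1 within the larger cluster (Col3a1), 2 within the smaller (Col1a1 and Col12a1) and 0 in all other fits. With the block the calls of Col16a1, Col6a1 and Col8a2 over time, Col6a3 at 24 h and Col11a1, Col15a1, Col18a1 and Col6a1 at 72 h were lost. Equal replicate numbers did not deviate together (mean correlation -0.05 to 0.04), so these samples share a number only.

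Handling genes called over time numbered 27 and 9 within the larger and smaller clusters and 13 to 20 with a sample left out. At 24 h they numbered 7 without the filter, 5 with the block, 3 within the smaller cluster and 8 (without NC 24 h replicate 2) to 19 (without KD 24 h replicate 6) with a sample left out. At 72 h they numbered 22 and 4 within the clusters and 9 to 16 with a sample left out, and 14 over time and 10 at 72 h with the block. The interaction called 2 on deposited RPKM, 1 at a pseudocount of 1 and 2 within either cluster. Lox at 72 h, lower and not called, turned to 0.32 within the larger cluster (adjusted p = 0.048), and Col1a2 to Col1a1 at 72 h turned to 1.00 with entries of any source; neither cause was tested.

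Over all entries, calls over time numbered 4807, 2884 with the block, 3283 in 1 fit over all groups, and 1755 within the smaller cluster. In KD at 24 h 11792 entries were called and, in a separate fit within the smaller cluster, 1552; at 72 h these numbers were 12133 and 5780. With 1 RefSeq row per gene 1054, 2555 and 2584 genes were called. The interaction called 111, with 774 on deposited RPKM, 196 and 236 at pseudocounts of 0.5 and 1, 40 with 1 RefSeq row per gene, 59 with the block, 184 with NC 72 h replicates 2 and 3 kept apart, and 892 and 1871 within the larger and smaller clusters. On deposited RPKM 80.9% of the calls at 72 h were higher, against 46.4%, with the median entry at 0.25. Shallow members such as Col8a2 and Col11a1 are limited by read number, and the 24 untested chains give no comparison.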

Other observations

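Genes were also set apart by the genomic span of their annotation. Among 1101 genes of over 100 kb the median log2 fold change in KD at 24 h was -0.49, and among 7994 shorter genes it was 0.04. At 72 h the medians were -0.32 (1203 genes) and 0.05 (8337 genes), and over time in control 0.03 and 0.02. Among collagen chains the medians were -0.39 for 10 long and -0.33 for 8 shorter genes at 24 h, and -0.42 for 11 and -0.33 for 9 at 72 h. Of the chains called lower in KD at both times, Col5a1 spans 153 kb, Col4a2 136 kb, Col18a1 114 kb, Col15a1 105 kb and Col5a3 45 kb. The part of gene span in the collagen values was not tested. A span was found for 94.8% to 94.9% of tested genes, and these values are a description without a test.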
